A study of Mus musculus with 6 samples.

Results

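The BCL2 family sets whether a cell opens its mitochondrial outer membrane and dies by apoptosis, and 10 of its genes were followed here through CSF-1 stimulation of mouse prostate tumor cells. The 10 genes were taken by name from the array annotation, out of 36163 genes named in the files. The rule uses no measured value, but the members were chosen with earlier results of these data known. They were the anti-apoptotic Bcl2, Bcl2l1, Bcl2l2 and Mcl1, the effectors Bax and Bak1, and the BH3-only genes Bcl2l11, Bid, Bad and Bmf. Together they carried 14 probes, and all 10 passed the filter on dim probes, since their brightest probe was well above background on all 6 arrays.

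The cells were N18-Fms (N18-CFMS in the labels), made from C2H, an epithelial line of the TRAMP mouse prostate tumor model. N18 is 1 luciferase-transfected subclone of C2H, which was then transduced by retrovirus with murine c-fms, the gene of the CSF-1 receptor, and sorted by flow cytometry. All groups grew in DMEM with serum and dihydrotestosterone. Control cells were left unstimulated (treatment label vehicule), and the other groups received recombinant murine CSF-1 at 100 ng/mL for 24 h or 48 h, with 2 arrays per group from independent experiments. The labels and the results text give these times, while the methods text gives shorter ones, and the labelled times are used. Per the study, C2H-derived cells secrete CSF-1 themselves, so the Control cells were not free of the ligand.

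Every level is the log2 of the spot's processed signal minus that array's 75th percentile, so a level of 0 equals the 75th percentile. A change is the difference between 2 group means on this log2 scale, fitted by limma over 24648 tested genes, with p-values adjusted over all of them by the Benjamini-Hochberg method. In these bulk RNA samples, a lower level in each cell and fewer cells with the transcript cannot be told apart.

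Between 58.7% and 72.0% of the spots were well above background on each array. Replicate arrays correlated at 0.993 to 0.994 (Pearson, across the 24648 tested genes, 1 probe each, after the filter on dim probes). The array of 24 h replicate 1 was on a slide apart from the other 5. The transduced receptor gene Csf1r was at 4.88 to 5.34 on all arrays, with no called change. Of the epithelial markers, Cdh1 was not well above background on any array and Epcam on only 1 of 6, while Vim, of the fibroblast list, was at 7.96 to 8.36. Of 10 macrophage markers, 7 were tested and 2 (Cd14 and Mrc1) were higher at both times, Lyz2 was not well above background on any array, and the mean shift of the 7 against Control was 0.81 to 0.95 on the 24 h arrays and 0.44 to 0.55 on the 48 h arrays. Mrc1 changed by 4.27 and 3.56 and weighs most in that mean, while the median change of the 7 was 0.57 at 24 h and 0.15 at 48 h, where Cd68 (-0.51) and Itgam (-0.65) differed in the other direction without being called. Of 8 fibroblast markers, all tested, 4 were lower and 1 was higher at both times. By the same adjusted p under 0.05, 8.02% of all tested genes were higher and 5.99% lower at 24 h. At 48 h these shares were 6.58% and 7.38%, and the share called at both times was not computed. The part of these marker shifts in the results below was not tested.

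As background, anti-apoptotic members hold the effectors Bax and Bak1 in check, and BH3-only proteins tip that hold by binding the guardians or by engaging the effectors. Bax and Bak1, once active, form the pores that release cytochrome c, which leads to caspase activation. BH3-only genes are often controlled at the level of transcript, as Bcl2l11 (Bim) is when growth factors are withdrawn, whereas Bid and Bad are known mainly for control of the protein, by cleavage and by phosphorylation.

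The promoter windows of the 3 genes whose transcript changed are printed here, because these are the members that rose or fell. Each is the 250 bases just upstream of a RefSeq start in GRCm38.p6, 5′ to 3′ on the gene's strand. Capitals mark the FOXO motif GTAAACA in Bcl2l11 and the E-box CACGTG in Bax. The windows are chr2:128125788-128126037 (plus strand) for Bcl2l11, chr7:45466899-45467148 (minus strand) for Bax and chr6:120916825-120917074 (minus strand) for Bid.
Bcl2l11: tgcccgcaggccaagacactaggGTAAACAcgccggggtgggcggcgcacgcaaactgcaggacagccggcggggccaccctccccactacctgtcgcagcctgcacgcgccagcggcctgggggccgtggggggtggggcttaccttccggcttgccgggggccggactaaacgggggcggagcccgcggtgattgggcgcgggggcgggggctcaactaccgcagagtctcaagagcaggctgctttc
Bax: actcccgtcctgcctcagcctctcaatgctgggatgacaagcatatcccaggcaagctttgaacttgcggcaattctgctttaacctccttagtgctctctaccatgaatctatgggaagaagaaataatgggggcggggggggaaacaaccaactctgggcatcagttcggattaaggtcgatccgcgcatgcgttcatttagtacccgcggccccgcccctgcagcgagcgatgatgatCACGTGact
Bid: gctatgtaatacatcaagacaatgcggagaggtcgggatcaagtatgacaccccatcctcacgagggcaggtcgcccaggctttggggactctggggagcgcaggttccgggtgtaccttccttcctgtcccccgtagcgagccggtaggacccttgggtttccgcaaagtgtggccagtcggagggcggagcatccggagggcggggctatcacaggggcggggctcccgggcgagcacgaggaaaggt

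All 10 genes had at least 1 such window, 16 in all. Bcl2l11 has a second RefSeq start, whose window (chr2:128127325-128127574, plus strand) held GC boxes and no FOXO match and is not printed. GTAAACA, searched on both strands, was found in the printed Bcl2l11 window, at position -227 from the start, and in no other member window, against 3.17% of 32851 windows of all genes. CACGTG was found in 1 of the 16 windows, that of Bax at position -9, a share near the 6.02% of all windows. The AP-1 motif TGAGTCA, the STAT motif TTCNNNGAA and the interferon-stimulated response element (ISRE) were in none of the 16. The E2F motif TTTCGCGC was in 1 window of Bcl2l1, against 0.256% of all windows. The median GC content was 52.4% over all windows, and the member windows ran from 47.6% to 74.8%. GC boxes (GGGCGG) were in 8 of the 16 windows, including all 3 windows shown, against 32.7% of all windows, not matched for GC content. These are matches of letters only.

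Stimulation with CSF-1 for 24 h moved 3 pro-apoptotic members past an adjusted p of 0.05 and none of the 4 anti-apoptotic ones. Bcl2l11 rose while Bax and Bid fell. At 48 h, Bcl2l11 was the 1 member still past this threshold. The 3 of 10 called at 24 h stand against 14.0% of all tested genes (8.02% higher and 5.99% lower), and the 1 of 10 at 48 h against 14.0% as well (6.58% higher and 7.38% lower), so that the 48 h count was near the background. The study used p under 0.05 and a change of at least 2-fold, without stating whether p was adjusted. With the unadjusted limma p and this fold, 1 member was called at 24 h, again Bcl2l11, and 0 at 48 h. These stand against 7.68% and 6.48% of all genes. Without the array on the separate slide (24 h replicate 1), the 24 h differences of Bcl2l11, Bax and Bid were 1.49, -0.62 and -0.91, of like size but no longer called (adjusted p = 0.0633, 0.135 and 0.178 by limma). At an unadjusted p under 0.05 alone, the counts were 4 at 24 h and 2 at 48 h, against 31.3% and 30.9% of all genes. Both arrays of a stimulated group lay on the same side of both Control arrays for 6 of 10 members at 24 h and 8 of 10 at 48 h, against 59.0% and 58.8% of all genes, so that a lack of overlap alone was common. The plot of member levels by array shows these patterns.

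**Figure D1:**
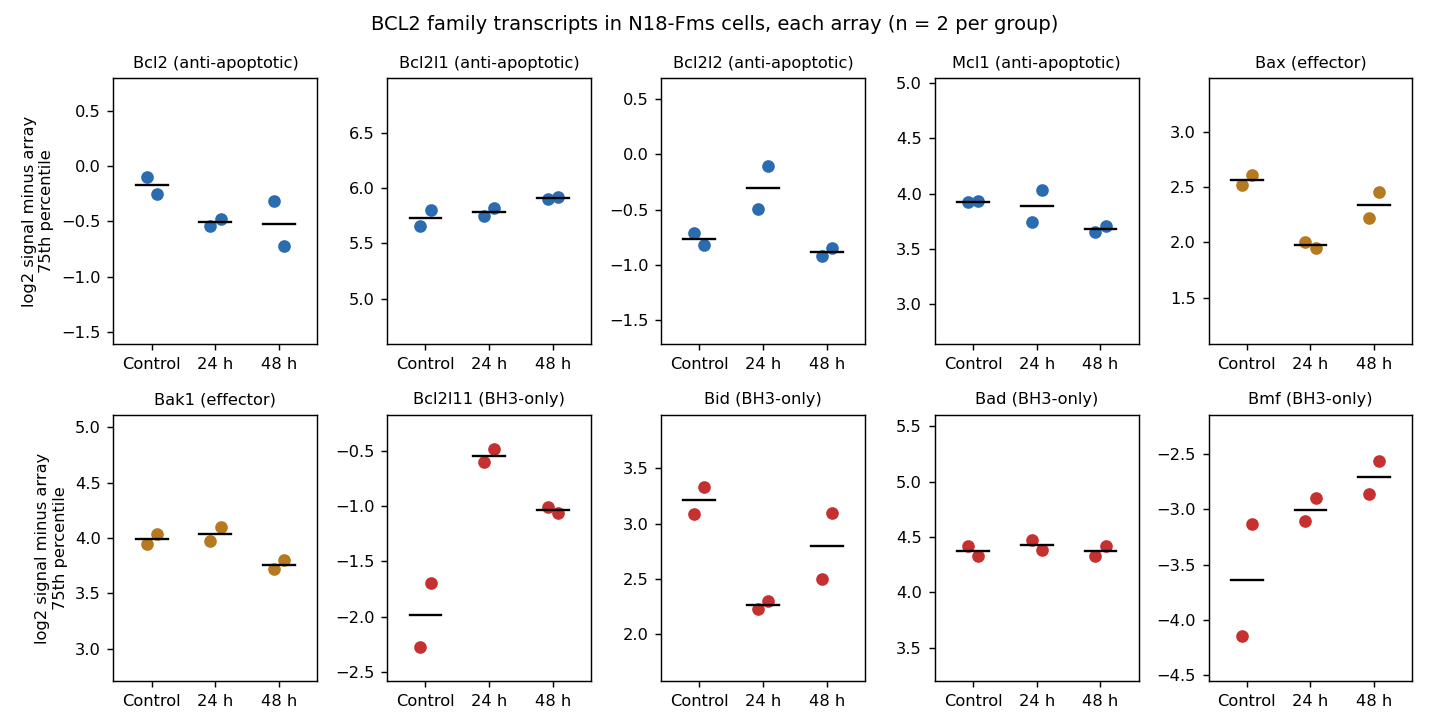
Level of each of the 10 BCL2 family members on every array (y axis, log2 signal minus the array's 75th percentile) for Control cells and both CSF-1 times (x axis). Points are arrays, 2 per group, lines are group means, and every panel spans the same height on the log2 scale. Bcl2l11 sits higher in both stimulated groups, from -2.27 and -1.70 in Control to -0.60 and -0.49 at 24 h, while Bax and Bid are lowest at 24 h.

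Bcl2l11 encodes Bim, a BH3-only protein able to bind all the main anti-apoptotic members. Its level was -2.27 and -1.70 in Control, -0.60 and -0.49 at 24 h, and -1.01 and -1.06 at 48 h. Both stimulated groups lay wholly above Control, and the 48 h arrays lay below the 24 h arrays. The rise was 1.44 at 24 h (SE 0.20, 95% interval 0.93 to 1.95, adjusted p = 0.0139 by limma), or 2.71-fold, and 0.95 at 48 h (interval 0.44 to 1.46, adjusted p = 0.0391), or 1.94-fold. The single probe, for NM_207680, covers chr2:127972893-127983988 (mm9, plus strand), a span of 11096 bases, so that it joins sequence from separate exons. The adjusted p at 24 h passed 0.05 when 24 h replicate 1 (0.0633), 24 h replicate 2 (0.0930) or 48 h replicate 1 (0.0550) was left out, and that at 48 h did so when any 1 array except Control replicate 2 was left out, at up to 0.185. The Bcl2l11 rise stayed between 0.93 and 1.72 at 24 h and between 0.60 and 1.24 at 48 h under every alternative run.

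Bid, the BH3-only protein that links death receptors to mitochondria once caspase 8 cleaves it, moved the other way at 24 h. Its level was 3.09 and 3.33 in Control, 2.23 and 2.30 at 24 h, and 2.50 and 3.10 at 48 h. The 24 h arrays were the lowest of the 6, and the 48 h arrays overlapped with Control. The level fell by 0.94 at 24 h (SE 0.22, 95% interval -1.50 to -0.38, adjusted p = 0.0498 by limma), which is 1.92-fold lower, and the difference at 48 h was -0.41 (interval -0.97 to 0.15, adjusted p = 0.281). The probe lies at chr6:120843464-120843523 (mm9, minus strand). This call sat at the threshold and was lost when any 1 array except 48 h replicate 2 was left out, at an adjusted p of up to 0.220 (without Control replicate 2), with the Bid difference between -1.23 and -0.82 in every alternative.

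Bmf encodes a BH3-only protein tied to the cytoskeleton and to loss of attachment. Its level was -4.14 and -3.13 in Control, -3.11 and -2.90 at 24 h, and -2.86 and -2.56 at 48 h. Each stimulated group lay above both Control arrays, which differed from each other by more than any stimulated pair. The difference was 0.63 at 24 h (SE 0.34, adjusted p = 0.285) and 0.92 at 48 h (interval 0.06 to 1.78, unadjusted p = 0.0401, adjusted p = 0.142 by limma), so Bmf did not pass the adjusted test. Leaving out 1 array moved the Bmf difference between 0.12 and 1.13 at 24 h and between 0.42 and 1.42 at 48 h.

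Bad, which survival kinases hold inactive by phosphorylation, had levels of 4.42 and 4.33 in Control, 4.47 and 4.38 at 24 h, and 4.33 and 4.42 at 48 h. All 3 groups overlapped. The difference was 0.05 at 24 h (95% interval -0.23 to 0.33) and 0.00 at 48 h (interval -0.28 to 0.28). A second Bad probe, which also joins separate exons, gave -0.16 and -0.03, neither called.

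Of the effectors, Bax fell at 24 h. Its level was 2.52 and 2.61 in Control, 2.0 and 1.95 at 24 h, and 2.22 and 2.45 at 48 h, so that the groups did not overlap and the 48 h arrays lay between the others. The level fell by 0.59 at 24 h (SE 0.13, 95% interval -0.91 to -0.28, adjusted p = 0.0388 by limma), a 1.51-fold lower level, and the difference at 48 h was -0.23 (interval -0.55 to 0.08, adjusted p = 0.277). The probe is at chr7:52717122-52717181 (mm9, minus strand). Leaving out any 1 of the 6 arrays took the adjusted p for Bax at 24 h past 0.05, to 0.0556 at the least (without 48 h replicate 2) and 0.173 at the most (without Control replicate 2), while the difference stayed between -0.88 and -0.50 over all alternatives.

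Bak1, the effector that sits on the mitochondrion before any death signal, was at 3.95 and 4.04 in Control, 3.97 and 4.10 at 24 h, and 3.72 and 3.80 at 48 h. The 24 h arrays overlapped with Control and the 48 h arrays lay below it. The difference was 0.04 at 24 h (adjusted p = 0.864) and -0.24 at 48 h (95% interval -0.52 to 0.05, adjusted p = 0.230).

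None of the 4 anti-apoptotic members was called by limma at either time, with the exception that centring arrays on their median called Bcl2 at 24 h (-0.62, adjusted p = 0.0499). At an unadjusted p under 0.05 by limma, the count was 1 at 24 h, Bcl2l2, and 0 at 48 h. The t-test of the study's methods instead had Mcl1 at 48 h. Bcl2, the founding member and a guardian at mitochondrion and endoplasmic reticulum, was at -0.10 and -0.25 in Control, -0.54 and -0.48 at 24 h, and -0.32 and -0.72 at 48 h. Both stimulated groups lay below Control, with a difference of -0.34 at 24 h (95% interval -0.76 to 0.08, adjusted p = 0.242) and of -0.34 at 48 h (interval -0.76 to 0.07, adjusted p = 0.236).

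Bcl2l1 encodes Bcl-xL, which guards against both effectors. Its brighter probe read 5.66 and 5.80 in Control, 5.75 and 5.82 at 24 h, and 5.90 and 5.92 at 48 h. The 48 h arrays were above both Control arrays, but the difference of 0.18 (95% interval -0.10 to 0.46, adjusted p = 0.341) was not called, nor was that of 0.05 at 24 h (interval -0.23 to 0.33). The dimmer Bcl2l1 probe differed by 0.09 and 0.05.

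Mcl1, a short-lived guardian of Bak1 in particular, was at 3.92 and 3.93 in Control, 3.74 and 4.03 at 24 h, and 3.65 and 3.71 at 48 h. The 24 h arrays lay on either side of Control and the 48 h arrays lay below it. The difference was -0.04 at 24 h (95% interval -0.38 to 0.29) and -0.25 at 48 h (interval -0.59 to 0.09, adjusted p = 0.278), and the other Mcl1 probe gave 0.01 and -0.31.

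Bcl2l2, which encodes Bcl-w, was at -0.71 and -0.82 in Control, -0.49 and -0.11 at 24 h, and -0.92 and -0.85 at 48 h. The 24 h arrays were the highest and the 48 h arrays the lowest, with no overlap between groups. The 24 h difference of 0.46 (95% interval 0.06 to 0.86) had an unadjusted p of 0.0307 and an adjusted p of 0.118 by limma, and the 48 h difference was -0.12 (adjusted p = 0.672). A dimmer Bcl2l2 probe gave 0.37 and -0.13.

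**Figure D2:**
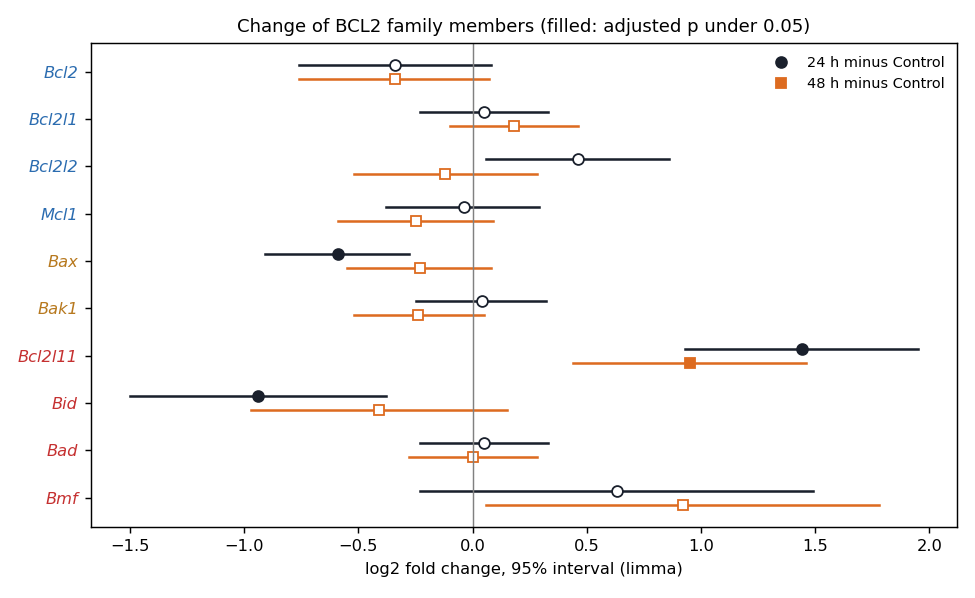
Change of each member against Control (x axis, log2 fold change) at 24 h (circles) and 48 h (squares), with the 95% interval from limma (lines). Filled symbols have an adjusted p under 0.05. Bcl2l11 is filled at both times, at 1.44 and 0.95, Bax and Bid are filled at 24 h only, and no anti-apoptotic member is filled.

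The test called no difference between 24 h and 48 h. No member and none of the 24648 genes had an adjusted p under 0.05 between the stimulated groups (limma). At an unadjusted p under 0.05 there were 2 of 10 members by limma, against 13.6% of all genes, and the methods' t-test gave 1, Bcl2l11. The 2 times did not overlap for 8 of 10 members, against 47.9% of all genes. For Bcl2l2 the level at 48 h minus that at 24 h was -0.58 (95% interval -0.98 to -0.18, unadjusted p = 0.0128, adjusted p = 0.234) and for Bax it was 0.36 (interval 0.04 to 0.67, unadjusted p = 0.0328, adjusted p = 0.316). The differences of Bid (0.53, adjusted p = 0.387) and Bcl2l11 (-0.49, adjusted p = 0.386) also ran back toward Control without passing. The calls of Bax and Bid at 24 h but not at 48 h therefore do not show that the times differed.

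The classes were set side by side by their medians, with no test, since the members were chosen as a list. At 24 h the median change was 0.00 over the 4 anti-apoptotic members, -0.28 over the 2 effectors and 0.34 over the 4 BH3-only members, and 0.04 over all tested genes. At 48 h these medians were -0.19, -0.24 and 0.46, against -0.04 over all genes. The BH3-only median covered opposite moves at 24 h, with members ranging from -0.94 for Bid to 1.44 for Bcl2l11. Centring each array on its median instead of its 75th percentile shifted the median of all genes to -0.25 at 24 h and -0.14 at 48 h, and under it the 24 h medians were -0.28, -0.56 and 0.05 for the 3 classes in that order, and the anti-apoptotic and effector medians at 48 h were -0.28 and -0.34.

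A balance was formed on each array as the mean deviation of the 6 pro-apoptotic members from their Control means minus that of the 4 anti-apoptotic members. It was -0.17 and 0.17 on the Control arrays, 0.14 and 0.00 at 24 h, and 0.16 and 0.43 at 48 h. The 24 h arrays lay within the Control range and only 48 h replicate 2 lay above it. The group mean was 0.07 at 24 h and 0.30 at 48 h, against an SD between replicates of 0.19. With 2 arrays against 2, an exact permutation test cannot go below p = 0.333, so the balance was left as a description.

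**Figure D3:**
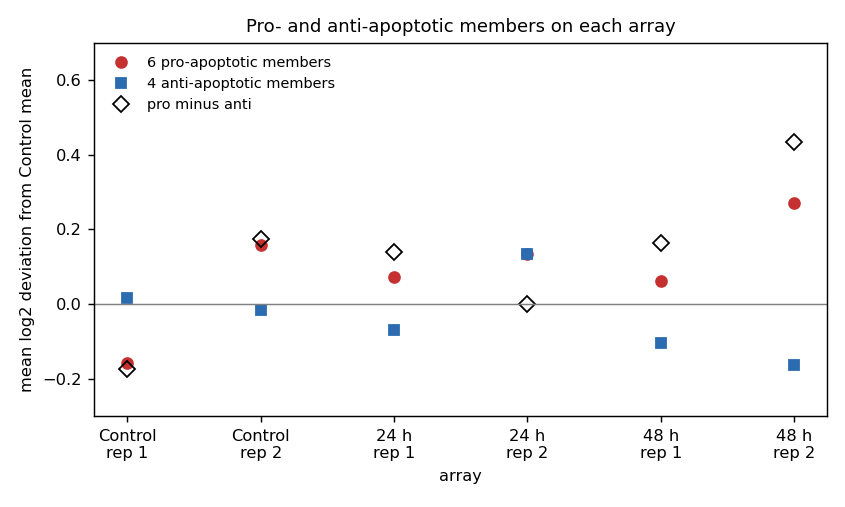
Mean log2 deviation from the Control mean (y axis) of the 6 pro-apoptotic members (circles), of the 4 anti-apoptotic members (squares), and their difference (diamonds), on each of the 6 arrays (x axis). The difference is -0.17 and 0.17 on the Control arrays, and only the last 48 h array, at 0.43, lies outside this range.

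Other genes of the pathway were counted from 5 lists of family relatives, mitochondrial and apoptosome genes, caspases, death receptor genes, and regulators, and where a pair of values is given the first is for 24 h and the second for 48 h. The median changes of the tested genes of these lists were, in that order, 0.33, 0.08, 0.37, 0.59 and 0.06 at 24 h, against 0.04 over all genes, and 0.52, -0.09, 0.38, 0.44 and 0.08 at 48 h, against -0.04. The counts of each list stand against 8.02% of all tested genes higher and 5.99% lower at 24 h. At 48 h these shares were 6.58% and 7.38%. Of the 16 other BCL2 family genes, 14 were on the array by name and 9 were tested, of which 3 rose at 24 h and 4 at 48 h and none fell. Bok, an effector-like relative of Bax and Bak1, rose by 0.59 at 24 h (adjusted p = 0.0265) and 0.98 at 48 h (adjusted p = 0.00736). It read 3.41 and 3.45 in Control, 4.02 on both 24 h arrays, and 4.36 and 4.47 at 48 h. The 24 h call of Bok was lost when any 1 array was left out, and its change was 0.30 under median centring. Bnip3, known from mitophagy and low oxygen, rose by 1.25 and 1.18 (adjusted p = 0.0212 and 0.0251). Bcl2l15, a less studied relative, read -6.40 and -3.47 in Control, with only the second array well above background, and -1.05 to 0.73 on the stimulated arrays. Its change of 4.48 at 24 h (SE 1.01, adjusted p = 0.0452) rests on Control arrays that differ by more than 2 units of log2, and its size ran from 1.98 to 5.95 over the alternatives. Bcl2a1c, Bcl2a1d, Bcl2l10, Pmaip1 (Noxa) and Hrk were not well above background on any array.

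Downstream of the mitochondrion, the 10 release and apoptosome genes were all tested, with 1 higher and 2 lower at each time. Casp9, the initiator caspase of the apoptosome, rose by 0.70 at 24 h and by 0.70 at 48 h (adjusted p = 0.0266 and 0.0270). Htra2, a mitochondrial protease that blocks caspase inhibitors once released, fell by 0.99 and 0.80 (adjusted p = 0.00911 and 0.0162). Aifm1, the apoptosis-inducing factor, fell by 0.57 at both times (adjusted p = 0.0456 and 0.0457), and was not called at either time once any 1 array was left out.

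All 12 caspases and inhibitors were tested, with 4 higher and none lower at 24 h and 3 higher and 1 lower at 48 h. Casp6, an executioner caspase, was at 1.09 and 1.13 in Control, 3.32 and 3.42 at 24 h, and 2.52 and 2.65 at 48 h. The groups were far apart, and Casp6 rose by 2.26 at 24 h (SE 0.11, adjusted p = 0.00145), or 4.79-fold, and by 1.47 at 48 h (adjusted p = 0.00278). Of the 12 genes named from these lists, Casp6 was the only one called at both times whichever 1 array was left out.

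Of the 11 death receptor genes, 7 were tested, and 2 rose at 24 h and 2 at 48 h, against 8.02% and 6.58% of all tested genes. Tnfrsf1a, the TNF receptor that can lead to Bid cleavage, rose by 0.98 and 0.74 (adjusted p = 0.0203 and 0.0409). Mlkl, the pore-forming effector of necroptosis, rose by 1.12 and 1.18 (adjusted p = 0.0116 and 0.0106). Among 21 regulators and partners of the members, all tested, 2 were higher and 2 lower at 24 h and 3 were higher and none lower at 48 h. Pim3, a kinase able to phosphorylate Bad, rose by 1.07 and 0.65 (adjusted p = 0.0126 and 0.0448). Ddit3 (CHOP), a stress factor known to induce Bcl2l11, differed by 0.05 at 24 h (adjusted p = 0.922) and rose by 1.07 at 48 h (adjusted p = 0.0474), a call lost when any 1 array was left out and made in 6 of 14 processing alternatives. E2f1 fell by 0.54 at 24 h (adjusted p = 0.0457) and differed by -0.50 at 48 h (adjusted p = 0.0532). With any 1 array left out, E2f1 was not called at 24 h, nor were Casp9, Tnfrsf1a and Pim3 at 48 h. Over the 5 lists, with 9, 10, 12, 7 and 21 genes tested, 16 genes were called at 24 h and 16 at 48 h. Of all tested genes, 14.0% were called each time. Leaving out any 1 array lowered both counts, but the share of all genes called in those fits was not computed. The lowest of these counts came without Control replicate 1 or 24 h replicate 2 at 24 h, and without Control replicate 1 or 48 h replicate 1 at 48 h.

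**Figure D4:**
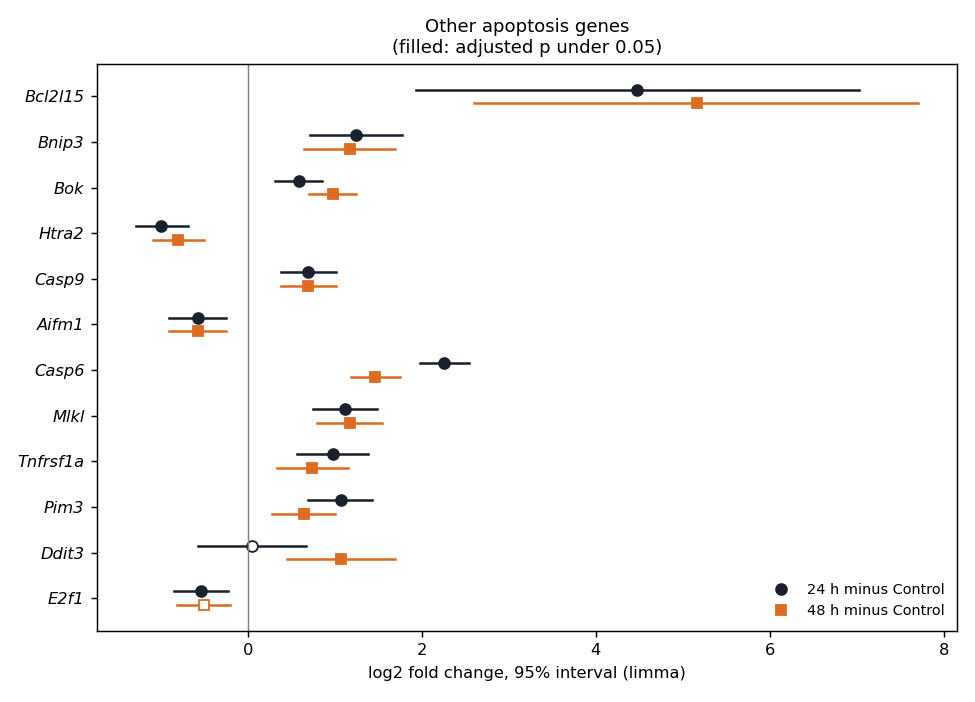
Change against Control (x axis, log2 fold change with the 95% interval from limma) of the 12 other apoptosis genes named here, at 24 h (circles) and 48 h (squares), filled where the adjusted p is under 0.05. Casp6 lies at 2.26 and 1.47, Bcl2l15 has the widest intervals, and Htra2, Aifm1 and E2f1 lie below 0.

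For the most changed called member of each class, the genes of most like pattern were found by the root mean square difference of their 6 deviations from the Control mean, among 13852 tested genes. For Bcl2l11 they were Mcpt9 (0.0938), Phactr2 (0.0979) and Stat3 (0.118), and 34 genes lay within 0.2. Stat3, a transcription factor, rose by 1.35 at 24 h and 1.04 at 48 h (adjusted p = 0.0129 and 0.0256). For Bax they were Vma21 (0.0475), Gtf2ird2 (0.0559) and Csrp1 (0.0578), and 947 genes lay within 0.2, so the Bax pattern was a common one. Bid, called but less changed than Bcl2l11, and the uncalled anti-apoptotic members were not compared in this way.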

How the data were processed

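Total RNA was labelled with Cy3 and hybridised to Agilent SurePrint G3 mouse arrays, 1 colour and 1 sample per array, and scanned spots were quantified with Agilent Feature Extraction 11.0.1 (per the submitters' processing notes). The authors deposited the signal intensity of each spot, background-subtracted and detrended but not normalized between arrays, and, for a subset of probes, log2 values with a probe baseline removed, used here as an alternative. On 44323 probes, 99.81% of its differences between arrays lay within 0.05 of those computed here. Its array medians run from -0.04 to 0.17, and its constant per array is not stated. It carries all 14 member probes.

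Non-control spots without outlier flags were set to log2 of the processed intensity minus the array's 75th percentile, and spots of a probe were averaged. The brightest probe stood for a gene. A gene entered the test where some group had both its arrays well above background (24648 of 36028 with a usable probe), using limma 3.58.1 in R 4.3.3 (lmFit and eBayes, all 6 arrays, residual df 3, prior df 2.39). The scripts were tested on simulated data. Replicates were independent experiments, and 2 per group limit the precision.

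The members and lists were chosen with earlier results of these data known. All members were named, and from each other list up to 3 genes, those with the largest mean change among those with an adjusted p under 0.05 at either time, of which 2 are not reported here. Promoters are from RefSeq (GRCm38.p6), and probe positions are those of the array files (mm9). The alternatives were quantile and median scaling, normexp background correction with an offset of 50, the deposited log2 values, other filters and probe rules, an intensity trend, fits of the compared groups alone, the t-test of the study's methods, a replicate block, and leaving out each array.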

Additional observations from a re-analysis of the deposited data

How the results depend on the processing

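Over all alternatives, the rise of Bcl2l11 and the lower levels of Bax and Bid kept their direction, but not always their call. Of 14 processing alternatives, Bcl2l11 was called in 13 at 24 h and 10 at 48 h, Bax at 24 h in 12 and Bid at 24 h in 8. Of the 6 fits without 1 array they were called in 3, 1, 0 and 1. Without 1 array, members called by adjusted p numbered 0 to 2 at 24 h, 0 to 1 at 48 h and 0 between the times, those past 2-fold 1 to 2 at 24 h, 0 to 2 at 48 h and 0 between the times, and other pathway genes 1 to 9 at 24 h and 1 to 7 at 48 h. The medians then ran from -0.09 to 0.09 and -0.21 to -0.15 for anti-apoptotic members, -0.32 to -0.23 and -0.31 to -0.16 for effectors, and 0.11 to 0.57 and 0.23 to 0.60 for BH3-only members at 24 h and 48 h, and the balance from -0.10 to 0.24 and 0.12 to 0.47. Uncalled values near 0 changed sign without 1 array, with ranges at 24 h of -0.02 to 0.12 for Bcl2l1, -0.19 to 0.10 for Mcl1, -0.03 to 0.10 for Bak1 and -0.16 to 0.26 for Ddit3, and of -0.21 to 0.20 for Bcl2 between the times.

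Median centring, which lowers all 24 h values, gave 24 h medians of -0.28 (anti-apoptotic), -0.56 (effector) and 0.05 (BH3-only) and 48 h medians of -0.28 and -0.34 for the first 2 classes. It gave 2 members past 2-fold at 24 h, 0 members by adjusted p at 48 h, and Bcl2 at 24 h as called (-0.62, adjusted p = 0.0499). It turned Bcl2l1 (-0.23), Bak1 (-0.25), Bad (-0.23) and Ddit3 (-0.23) at 24 h and Bcl2 (0.18) and Bad (0.14) between the times. Quantile normalization turned Mcl1 at 24 h (0.01) and Bcl2 between the times (0.01). Normexp turned the latter too (0.02) and gave a BH3-only median of 0.22 at 48 h. Normexp with quantile normalization gave 0.15 and 0.20 for that median, 0 members past 2-fold at 24 h, and turned Mcl1 (0.03) and Ddit3 (-0.03) at 24 h and Bcl2 between the times (0.04). The mean of a gene's probes turned Bad at 24 h (-0.06) and between the times (0.04). With no filter on dim probes, adjusted calls were 1 member at 24 h and 0 at 48 h, and 4 other pathway genes at each time. Fits of the 2 compared groups alone called 0 members and 9 other genes at 48 h, and an intensity trend 25 other genes at 48 h. The methods' t-test after Benjamini-Hochberg adjustment called 0 members and 0 other genes at both times. At an unadjusted p under 0.05 it gave 3 members at 24 h (Bax, Bcl2l11 and Bid). It gave 1 at 48 h, Mcl1, and 1 between the times, Bcl2l11, neither of them among the limma members of that comparison at this threshold, except that limma had Bcl2l11 at 48 h. Bcl2l15 gave no value where signal above background was asked of all 6 arrays. The share of all genes called was computed for the main fit alone, so no count under an alternative can be set against a background. Beyond the smaller sample or larger gene number that some alternatives have by construction, the cause of these changes was not tested.

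The replicate numbers did not count as a pairing, since the deviations of same-numbered arrays correlated at 0.128, 0.094 and 0.199. With the replicate block, 3, 1 and 0 members were called at 24 h, at 48 h and between the times, as without it, and it changed no call among the members. Precision is limited by 2 arrays per group.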
